A study of Mus musculus with 25 samples.

Results

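The CD28 family and checkpoint genes described here are 6 mouse genes, Cd28, Ctla4, Icos, Pdcd1, Lag3 and Havcr2, which encode the costimulatory receptors CD28 and ICOS and the inhibitory receptors CTLA-4, PD-1, LAG-3 and TIM-3 of T cells. What was counted for them were the pairs of 1 kb genome bins in which at least 1 bin overlapped a gene extended by 5 kb on each side, which were 167 of the 121571 pairs listed in any library. No pair joined 2 of the 6 genes. The 6 libraries were H3K27ac HiChIP of splenic CD8+ T cells of C57BL/6J mice, an assay that counts read pairs joining 2 places in the genome where 1 or both carry this mark of active chromatin. The groups were a CRISPR deletion labelled Intron (intron deletion), a CRISPR deletion labelled Upstream (upstream deletion), both at the Il2ra super-enhancer, and wild type (WT). Each was given IL-2 or left untreated as control, in 1 library each, and all cells had been activated beforehand. Il2ra encodes CD25, the alpha chain of the IL-2 receptor. The labels' protocol gives culture of CD8+ T cells with IL-2 at 100 or 1000 U/ml or with anti-CD3 and anti-CD28 for 2 days, a rest of 4 h and then addition of IL-2. The sources used here do not give which stimulus, dose and time apply to these libraries, the extent and zygosity of the deletions, or the number of mice. In all, 19 ChIP-seq samples of the series were not analysed here.

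CD28 and ICOS add a second signal to that of the T cell receptor, while CTLA-4 competes with CD28 for the same ligands, CD80 and CD86, and PD-1 recruits phosphatases that dampen CD28 and T cell receptor signalling. LAG-3 binds MHC class II and other ligands, and TIM-3, the product of Havcr2, is carried by effector and exhausted T cells. Activation switches on Ctla4, Icos, Pdcd1, Lag3 and Havcr2 in T cells, whereas Cd28 is already active in resting cells. CD28 engagement also raises IL-2 production and CD25, which ties the family to the locus that was deleted.

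The genes lie in 4 places of the mm10 genome (GRCm38). Cd28 (Entrez gene 12487, chr1:60746388-60773359), Ctla4 (12477, chr1:60909025-60915832) and Icos (54167, chr1:60960773-61000322) are neighbours on chromosome 1, and Pdcd1 (18566, chr1:94038305-94052553) lies farther along it. Lag3 (16768, chr6:124904359-124912434) stands between Cd4 and Ptms, whose bins fall in the same window, so contacts of Lag3 and Ptms cannot be fully told apart. Havcr2 (171285, chr11:46454931-46481255) lies beyond Med7.

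RefSeq promoter sequences of build GRCm38.p6, from 250 bases before to 50 bases after the start, were found for 3 of the 6 genes, Ctla4, Pdcd1 and Havcr2, and are printed because the strongest contacts of Ctla4 and Pdcd1 start from the bin that holds the start of the gene and because the Havcr2 bin was one of those missing in intron deletion libraries. They cover chr1:60908775-60909074 on the plus strand, chr1:94052504-94052803 on the minus strand and chr11:46454681-46454980 on the plus strand. The printed Ctla4 sequence reaches the contact bin chr1:60909001-60910000 only with its last part, which holds the start, and most of it lies in the bin before. Capitals mark matches, on either strand, to a TATA box (TATAAA), the AP-1 motif TGANTCA, the STAT5 motif TTCNNNGAA or the NFAT core GGAAA.
Ctla4: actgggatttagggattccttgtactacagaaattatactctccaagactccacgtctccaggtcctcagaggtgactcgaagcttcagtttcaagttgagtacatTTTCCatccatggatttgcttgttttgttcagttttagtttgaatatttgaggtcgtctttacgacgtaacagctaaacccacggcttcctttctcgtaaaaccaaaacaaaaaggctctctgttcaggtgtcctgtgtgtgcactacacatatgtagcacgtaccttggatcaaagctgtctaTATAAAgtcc
Pdcd1: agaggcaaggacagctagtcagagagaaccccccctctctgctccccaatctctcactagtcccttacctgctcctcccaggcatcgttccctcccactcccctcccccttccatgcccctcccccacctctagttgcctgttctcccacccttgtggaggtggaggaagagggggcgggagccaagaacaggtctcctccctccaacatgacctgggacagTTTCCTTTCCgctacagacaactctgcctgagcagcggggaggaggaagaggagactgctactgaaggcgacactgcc
Havcr2: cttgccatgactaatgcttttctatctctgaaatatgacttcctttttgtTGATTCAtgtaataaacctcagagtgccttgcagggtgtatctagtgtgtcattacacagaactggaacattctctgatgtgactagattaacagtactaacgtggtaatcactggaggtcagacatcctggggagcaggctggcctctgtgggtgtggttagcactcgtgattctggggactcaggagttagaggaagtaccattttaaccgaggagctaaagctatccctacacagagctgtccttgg
The STAT5 motif, the DNA letters bound by the factor that IL-2 activates, had no match in these 3 windows, and 8.3% of the 32851 RefSeq mouse promoters of that length held one. The NFAT core had 1 match in Ctla4 and 2 in Pdcd1, and occurred in 61.3% of promoters. Havcr2 had 1 AP-1 match, a motif found in 7.81% of promoters, and Ctla4 had 1 TATAAA, present in 13.6%, which began 40 bases after the annotated start. No match overlapped one of another motif.

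The libraries differed in depth. Contact and read counts below are before scaling for depth unless scaling is named, and ratios and fold changes are after it. The intron deletion libraries listed 72743 pairs with IL-2 and 38879 in control, the upstream deletion libraries 61168 and 56113, and the WT libraries 94922 and 72698. A pair was listed at 20 contacts or more and at least 5 kb apart, so a pair missing from a library is below that limit or was not listed for another reason, and is not a count of 0. Over a stretch of 22 bins in the 5' part of Il2ra (chr2:11645001-11667000), the intron deletion libraries listed 1 bin with IL-2 and 1 in control, the upstream deletion libraries 18 and 16 and the WT libraries 21 and 17. Over 23 bins between Rbm17 and Il2ra (chr2:11609001-11632000), the intron deletion libraries listed 13 with IL-2 and 4 in control, the upstream deletion libraries 2 and 1 and the WT libraries 18 and 16. All 6 CD8 T cell markers were measured, and the neighbouring genes Cd8a and Cd8b1 were higher in the intron deletion (log2 fold changes of 0.56 and 0.44, adjusted p = 0.000133 and 0.00118, edgeR), Cd8b1 without adjusted p under 0.05 when a WT library was left out (0.0709 and 0.0594). Of the B cell markers 1 of 5 was measured, Cd79a, which was higher in the intron deletion (0.39, adjusted p = 0.00239), but not with the gene span alone (0.10, adjusted p = 0.483) or without a WT library (adjusted p = 0.0631 and 0.0672); its window also holds Arhgef1. In 9 other settings of the processing that kept all 6 libraries, the calls of Cd8a, Cd8b1 and Cd79a held in 9, 8 and 7. Other measured markers, 1 of 4 for CD4 or regulatory T cells, 1 of 4 for NK cells, 2 of 5 for myeloid cells and 0 of 4 for erythroid cells, did not pass. The scaled contact sums of marker lists ranged over the 6 libraries from 16671 to 32260 for CD8 T cells, 175.7 to 361.6 for CD4 or regulatory T cells, 93.3 to 299.99 for NK cells, 2599 to 3879 for B cells, 1240 to 2218 for myeloid cells and 0 to 61.6 for erythroid cells. The myeloid sum came only from Cd68, whose window also holds Mpdu1 and Eif4a1, and Tyrobp, whose window also holds Hcst and Nfkbid. Windows of some markers in the other lists hold further genes too. No library listed a pair at Ms4a1 and Pax5 (B cells), Ncr1 and Klra8 (NK cells), Lyz2 and Itgam (myeloid cells) or Hbb-bs and Hba-a1 (erythroid cells). The part of these markers in the results below was not tested. In bulk libraries, fewer cells with a contact and fewer contacts per cell cannot be told apart.

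Pairs listed at the 6 genes ranged from 5 at Icos to 49 at Lag3. Lag3 had 15 pairs that were listed in all 6 libraries, Ctla4 6 and Pdcd1 2, while Cd28 (28 pairs), Icos (5) and Havcr2 (20) had none. Only Ctla4, Pdcd1 and Lag3 could therefore be tested as whole loci, and the other 3 genes are described library by library and through the coverage of bins. The 23 tested pairs are those strong enough to be listed everywhere, and counts over them do not stand for all 167.

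**Figure D1:**
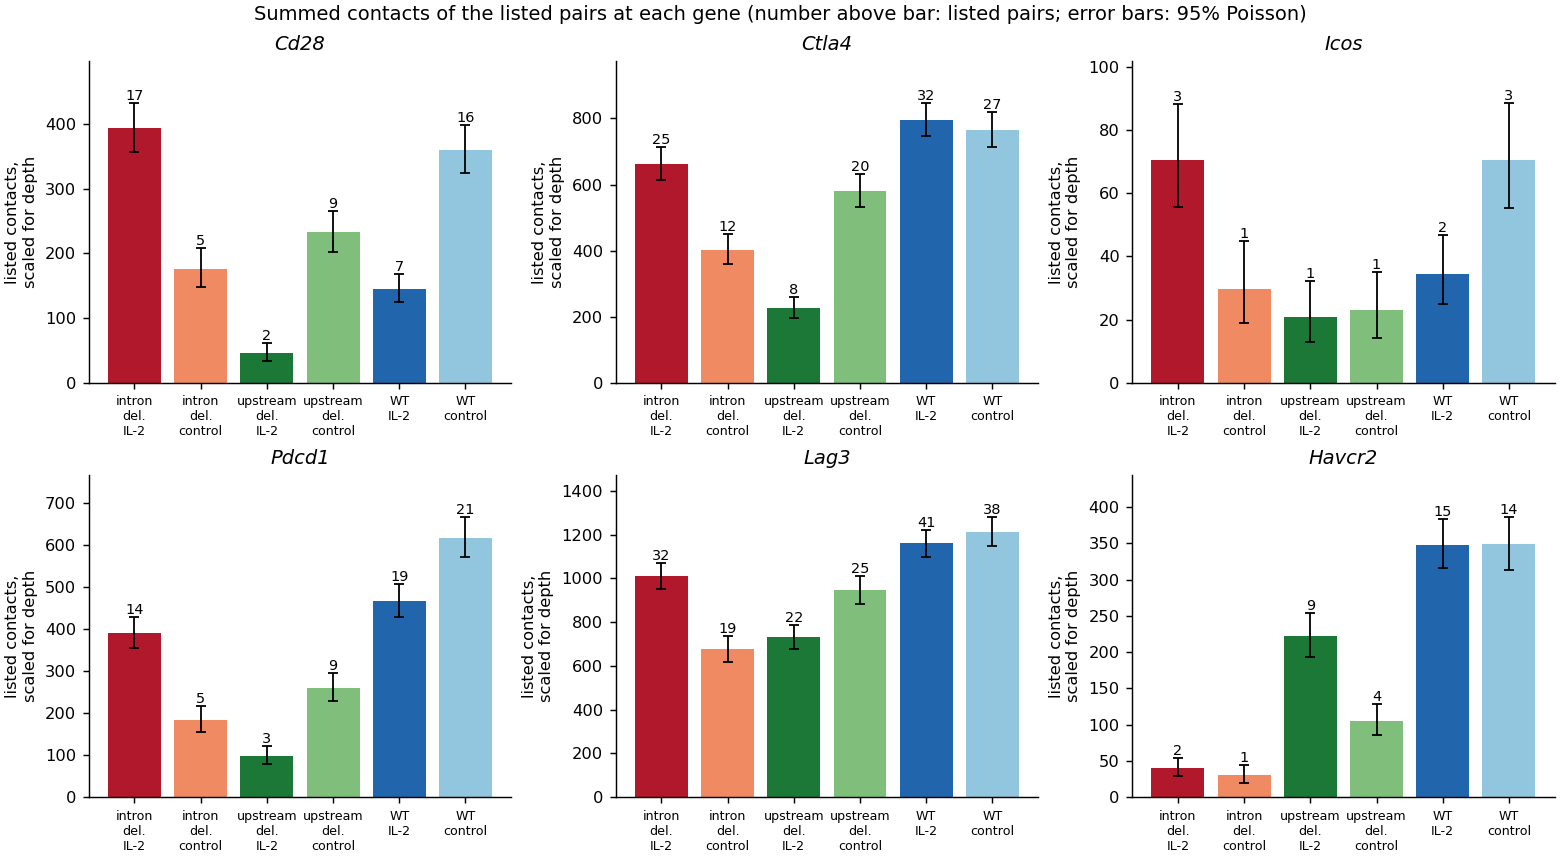
Summed contacts of the listed pairs at each gene, divided by the depth factor of the library, in the 6 libraries (bars, y axis in scaled contacts starting at 0; number above each bar, listed pairs; error bars, 95% exact Poisson interval, counting error only). Havcr2 had 2 and 1 listed pairs (IL-2 and control) in intron deletion cells against 15 and 14 in WT cells, while Cd28 had 17 and 5 against 7 and 16. Numbers of listed pairs are not scaled for depth.

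Across the 6 genes, none of the 3 measured loci and none of the 23 shared pairs passed the threshold in any comparison (edgeR, adjusted p of 0.124 or more for the pairs), and DESeq2 called none of them either. Over all features, 3.55% of the 3522 gene loci and 3.3% of the 28033 shared pairs passed with IL-2. In the deletions against WT, 17.8% of loci and 11.3% of pairs passed (intron), and 0.17% of loci and 0.0785% of pairs (upstream). Unadjusted p was under 0.05 for 1 of the 3 loci with IL-2 (Ctla4, 0.0486) and 0 in the deletions, and for 4 of the 23 pairs with IL-2, 1 for the intron deletion and 2 for the upstream deletion. Among the 19 tested bins in the gene windows the intron deletion had 0 higher and 5 lower, where 21.7% of the 18580 tested bins were higher and 24.5% lower. The upstream deletion had 0 higher and 2 lower, against 1.21% and 0.484% of all bins. With IL-2 0 of the 19 passed, as did 0.0% of all bins, although 5 of the 19 and 36.6% of all bins had an unadjusted p under 0.05, and DESeq2 called 1 of the 19 and 2172 of all. For the deletions, DESeq2 called 0 of the 19 (intron) and 3 (upstream). The median IL-2 change was -0.12 over these 19 bins, of which 18 were negative, and -0.00 over all tested bins. The medians in the deletions were -0.13 (intron) and -0.17 (upstream) against -0.03 and -0.00 over all tested bins. Of 9 partner bins outside the windows, 3 were lower in the intron deletion. The IL-2 response of the intron deletion differed from the others in 4 of the 19 bins, all higher, as in 10.1% of all bins, where 21.5% differed in either direction. In those 4 bins the response of the upstream deletion differed from the others by -0.45 to -0.22, which did not pass. Each call is given below with the libraries on which it rests.

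**Figure D2:**
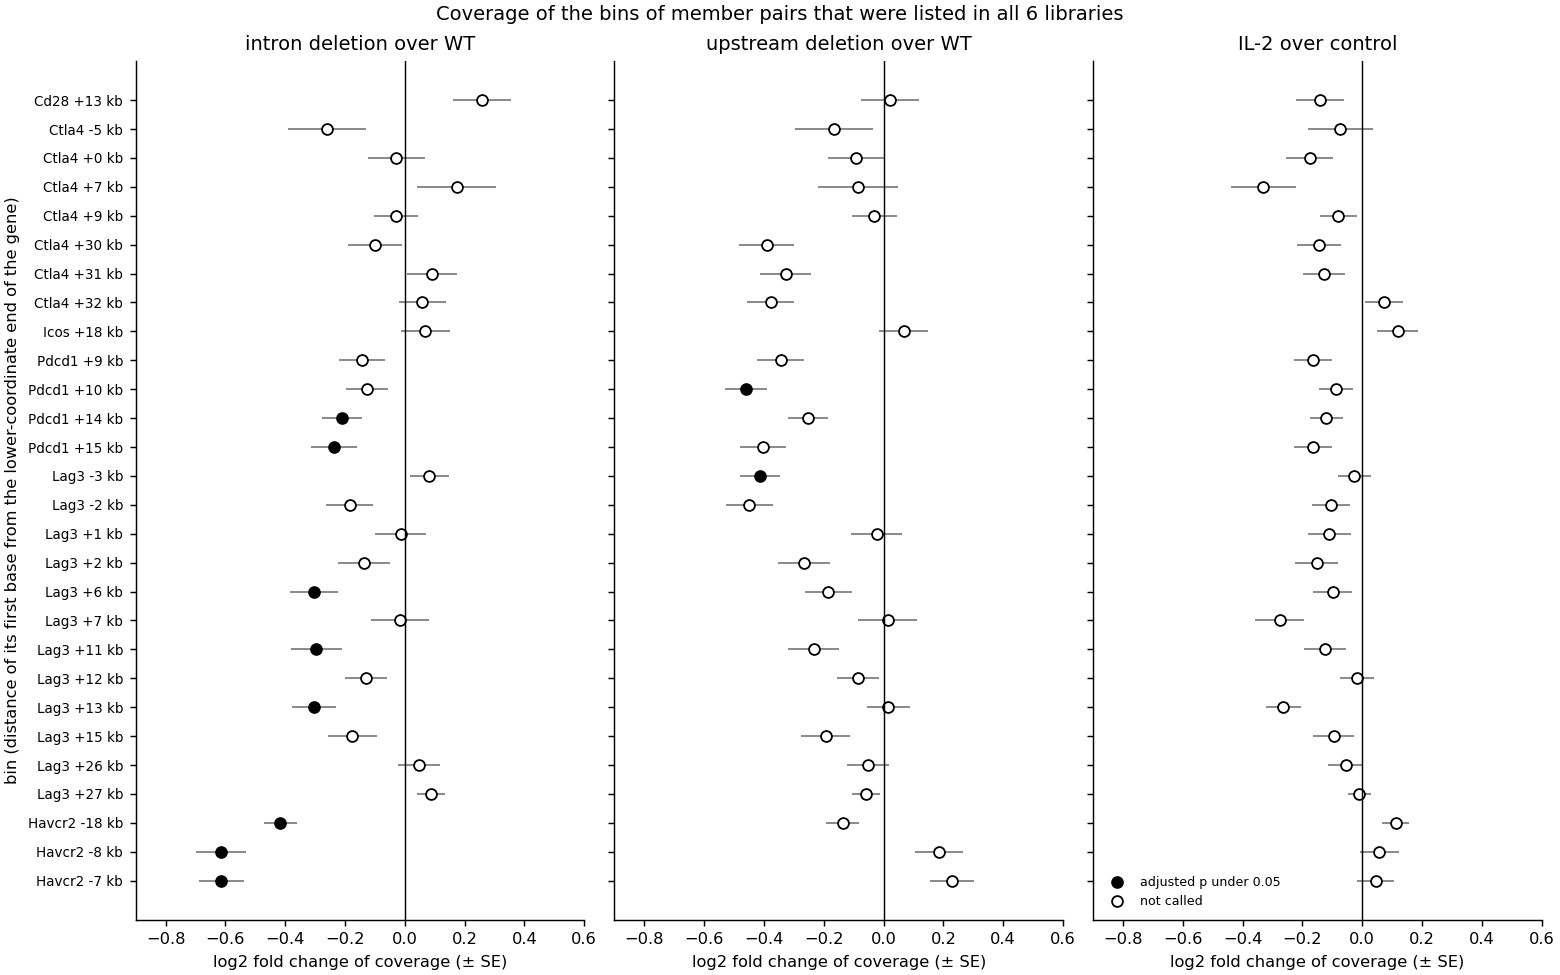
Log2 fold changes of coverage (x axis, ± SE) of the 28 bins that anchor a pair of these genes and were listed in all 6 libraries, for the intron deletion over WT, the upstream deletion over WT and IL-2 over control; filled points have adjusted p under 0.05 (edgeR). Bins are ordered by gene and by distance from its lower-coordinate end. The 3 bins beside Havcr2 had the lowest intron deletion changes, at -0.61, -0.61 and -0.42, and no bin passed with IL-2.

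In the costimulatory receptor gene Cd28, contacts ran between the low-coordinate end of the gene, a bin about 13 kb into it (chr1:60759001-60760000) and a bin just beyond its far end (chr1:60776001-60777000), with distances of 5 to 28 kb. With IL-2 and in control, the intron deletion libraries listed 17 and 5 pairs, the upstream deletion libraries 2 and 9, and the WT libraries 7 and 16. IL-2 libraries thus held more pairs than their controls in the intron deletion and fewer in both other genotypes. The 3 pairs listed in the most libraries were each found in 5 and missing in the upstream deletion with IL-2. The pair of chr1:60748001-60749000 with the bin at 60759001 had 37 and 29 contacts (IL-2 and control) in intron deletion cells, 26 in control upstream deletion cells, and 32 and 32 in WT cells. The pair of the bins at 60759001 and 60776001 had 39 and 28 contacts (IL-2 and control) in intron deletion cells, 26 in control upstream deletion cells, and 22 and 26 in WT cells. That of the bins at 60769001 and 60776001 had 26 and 22 contacts (IL-2 and control) in intron deletion cells, 25 in control upstream deletion cells, and 22 and 20 in WT cells. In WT the second and the third of these were close to the listing limit of 20. Scaled for depth, the intron deletion contacts of the 3 pairs were lower with IL-2 than in control (33.9 against 37.6, 35.8 against 36.3 and 23.8 against 28.5). So were those in WT (26.3 against 30.5, 18.1 against 24.8 and 18.1 against 19.1). Between the bins at 60771001 and 60776001 a pair with a higher mean over its listed libraries than any of the 3 had 29 and 36 contacts (IL-2 and control) in intron deletion cells, and in control 32 in upstream deletion cells and 31 in WT cells.

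The coverage of Cd28 bins, a count of reads per bin and so less limited by depth, was compared over the bins listed in both libraries of a pair. With IL-2 over control it had a ratio of 0.964 in the intron deletion (95% interval 0.93 to 0.999, 5 bins), 0.805 in the upstream deletion (0.755 to 0.858, 2 bins) and 0.772 in WT (0.75 to 0.794, 8 bins). In WT all 8 bins were lower with IL-2, with ratios of 0.575 to 0.971 for single bins. These ratios compare single libraries, over different bins in each genotype, and the intervals cover counting error only. The lowest WT ratio was that of the bin at 60776001, which is not among the upstream deletion bins. At the bin listed in all 6 libraries, chr1:60759001-60760000, scaled coverage with IL-2 and in control was 1804.6 and 1737.4 in the intron deletion. It was 1364.0 and 1666.1 in the upstream deletion and 1390.2 and 1588.0 in WT. With IL-2, the intron deletion stood at 1.35 times WT (1.31 to 1.39) and was higher in 7 of 7 bins, whereas in control it stood at 1.07 times WT (1.03 to 1.11) and was higher in 5 of 6 bins. The upstream deletion stood at 0.946 times WT with IL-2 (2 bins) and at 1.13 times WT in control (10 bins).

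**Figure D3:**
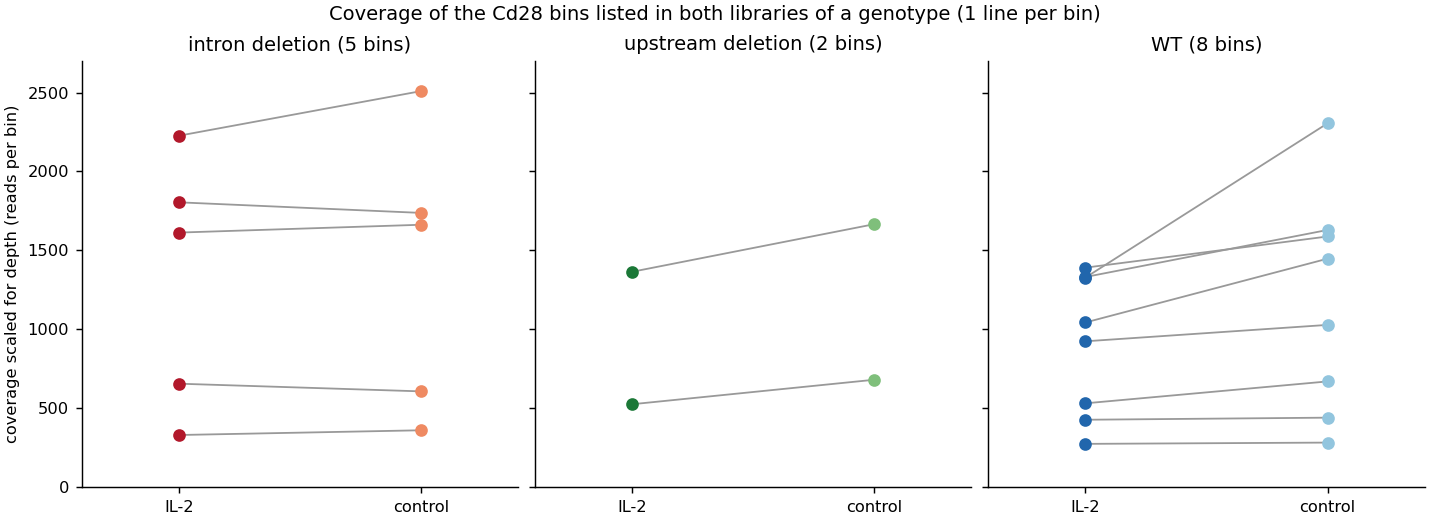
Coverage of the Cd28 bins listed in both libraries of a genotype, divided by the depth factor (y axis, reads per 1 kb bin), with IL-2 and in control; each line joins 1 bin. All 8 WT bins were lower with IL-2, both upstream deletion bins were lower, and 2 of 5 intron deletion bins were higher.

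Of the Cd28 bins only that at chr1:60759001-60760000 was listed in all 6 libraries. With IL-2 and in control, its coverage was 1946 and 1296 reads in intron deletion cells, 1254 and 1532 in upstream deletion cells, and 1736 and 1728 in WT, before scaling for depth. Across the genotypes IL-2 gave a log2 fold change of -0.14 (SE 0.08, adjusted p = 0.241, edgeR). Without 1 of the intron deletion libraries this was -0.24, and without 1 of the upstream deletion libraries it was -0.07. When either library of a genotype is left out, the IL-2 change comes from the other 2 genotypes alone. The 2 omissions are therefore 1 check. The intron deletion against WT gave 0.26 (SE 0.10, adjusted p = 0.07), with 0.11 without its IL-2 library (adjusted p = 0.209) and 0.40 without its control library (adjusted p = 2.89e-08). The upstream deletion gave 0.02 (adjusted p = 0.909). The IL-2 response of the intron deletion differed from that of the other 2 genotypes by 0.29 (SE 0.09, adjusted p = 0.0126).

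In Icos, the third member of the family on this stretch, only 5 pairs were listed, all inside its window, 7 to 12 kb apart. The pair listed in the most libraries joined chr1:60979001-60980000 and chr1:60989001-60990000, with 25 and 23 contacts (IL-2 and control) in intron deletion cells, 20 with IL-2 in upstream deletion cells, and 20 and 29 in WT cells. Scaled for depth, these contacts were 22.9 and 29.8 in intron deletion cells, 20.9 in upstream deletion cells, and 16.4 and 27.6 in WT cells. The coverage of the bin at 60979001 with IL-2 and in control was 1426 and 985 reads in intron deletion cells, 1319 and 1114 in upstream deletion cells, and 1633 and 1320 in WT, before scaling for depth. After scaling, the coverage of this bin was 1322.4 and 1320.5 in intron deletion cells, 1434.7 and 1211.5 in upstream deletion cells, and 1307.7 and 1213.1 in WT. Its log2 fold change with IL-2 was 0.12 (SE 0.07, adjusted p = 0.249), with 0.17 without 1 of the intron deletion libraries and 0.06 without 1 of the upstream deletion libraries. Against WT it was 0.07 in the intron deletion (adjusted p = 0.522) and 0.07 in the upstream deletion (adjusted p = 0.65). This was the only one of the 19 tested bins in the gene windows whose IL-2 change was positive.

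The contacts of Ctla4, the inhibitory counterpart of Cd28, started almost wholly from 1 place: 35 of its 40 pairs had an anchor in the bin of its start, chr1:60909001-60910000. This bin had, with IL-2 and in control, 23 and 12 listed pairs in intron deletion cells, 8 and 17 in upstream deletion cells, and 31 and 25 in WT. Upstream, 16 of its partner bins lay 15 to 41 kb away within Gm38137, a long noncoding RNA gene, and downstream 6 lay 29 to 34 kb away within Gm34649, another. The downstream pairs were listed 6 and 3 times (IL-2 and control) in intron deletion cells, 4 and 6 in upstream deletion cells and 6 and 6 in WT cells. The Gm38137 pairs were listed 7 and 3 times (IL-2 and control) in intron deletion cells, 0 and 3 in upstream deletion cells and 14 and 8 in WT cells.

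**Figure D4:**
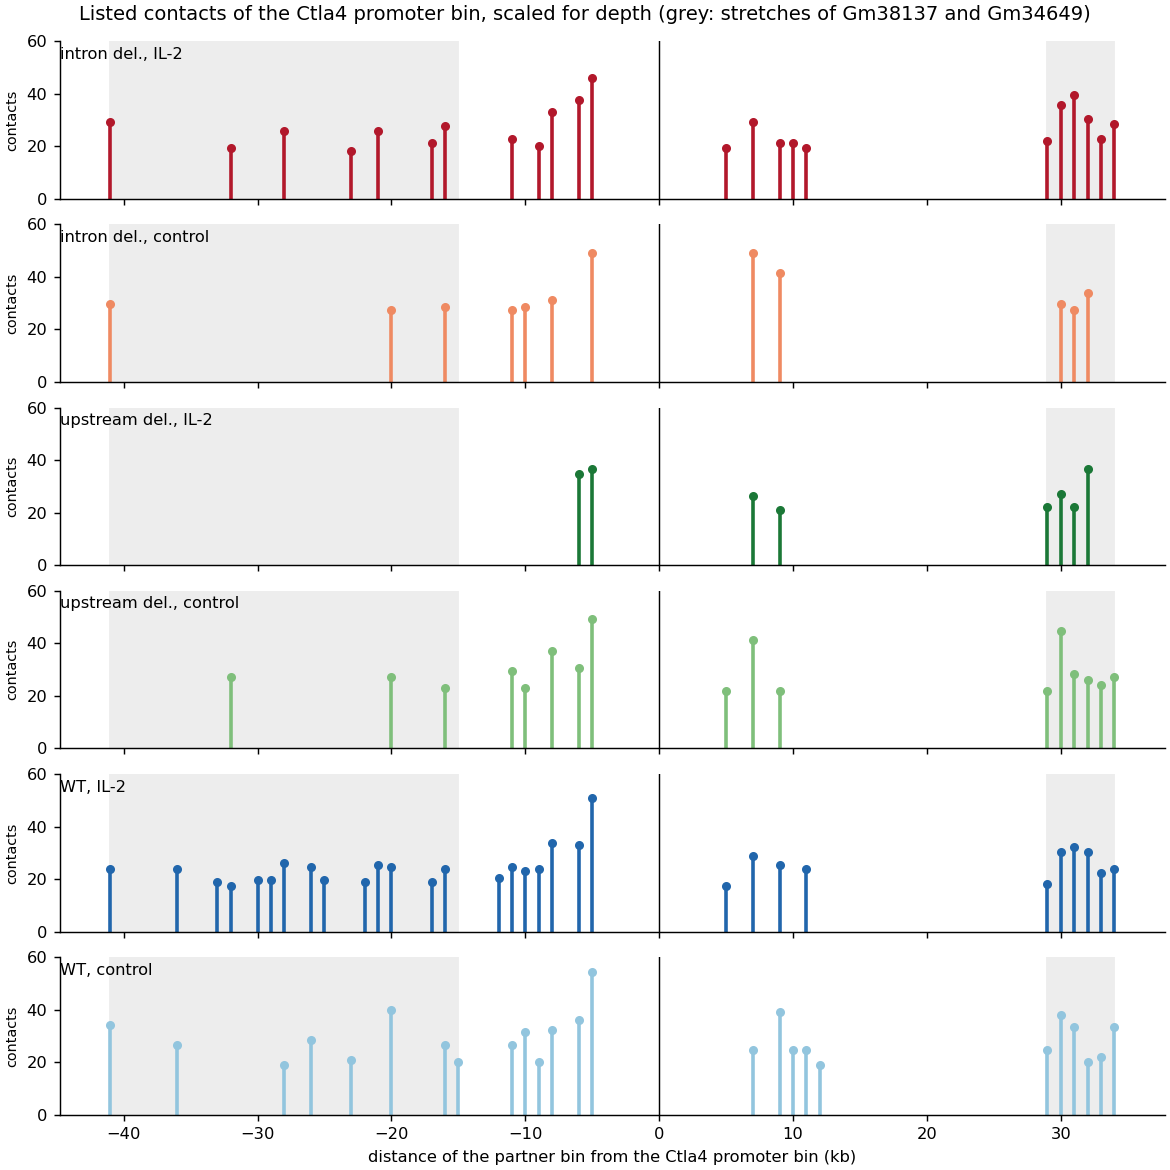
Contacts of the Ctla4 promoter bin in each library, divided by the depth factor (y axis), against the distance of the partner bin (x axis, kb; 0 marks the promoter bin, and grey the stretches within Gm38137 and Gm34649). A partner with no line was not listed. Of the Gm38137 partners 14 were listed in WT with IL-2 and 0 in the upstream deletion with IL-2, while partners in Gm34649 were listed in every library.

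The 3 strongest shared pairs of the Ctla4 promoter were tested in all 6 libraries. The pair with chr1:60904001-60905000, 5 kb upstream, had 50 and 38 contacts (IL-2 and control) in intron deletion cells, 35 and 45 in upstream deletion cells, and 62 and 57 in WT cells. The pair with the Gm34649 bin chr1:60939001-60940000 had 39 and 23 contacts (IL-2 and control) in intron deletion cells, 26 and 41 in upstream deletion cells, and 37 and 40 in WT cells. The pair with chr1:60916001-60917000, just past the end of the gene, had 32 and 38 (IL-2 and control) in intron deletion cells, 25 and 38 in upstream deletion cells, and 35 and 26 in WT cells. Only in the first of these pairs were both intron deletion and both upstream deletion libraries below both WT libraries before scaling. The 6 shared Ctla4 pairs summed to 220 and 178 contacts (IL-2 and control) in intron deletion cells, 162 and 194 in upstream deletion cells, and 241 and 220 in WT cells. Once scaled for depth, the sum was lower with IL-2 in each genotype, at 204.3 against 230.8 in the intron deletion, 170.8 against 217.2 in the upstream deletion and 193.9 against 206.1 in WT. The log2 fold change with IL-2 was -0.20 (SE 0.09, adjusted p = 0.22, edgeR), which missed the threshold. The intron deletion stood 0.12 above WT (SE 0.11, adjusted p = 0.475) and the log2 fold change of the upstream deletion was -0.05 (SE 0.11, adjusted p = 0.888).

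The bin of the Ctla4 start had the highest coverage of any bin in the 6 windows, with 3787 and 2604 reads (IL-2 and control) in intron deletion cells, 2694 and 3528 in upstream deletion cells, and 4253 and 4098 in WT cells. Its log2 fold change with IL-2 was -0.17 (SE 0.08, adjusted p = 0.162), with -0.26 without 1 of the intron deletion libraries and -0.07 without 1 of the upstream deletion libraries. Its IL-2 response in the intron deletion differed from that in the other 2 genotypes by 0.27 (SE 0.08, adjusted p = 0.00461). The bin at 60916001 had a like difference of 0.40 (SE 0.12, adjusted p = 0.00908). Over all Ctla4 bins listed in both libraries, the ratio of IL-2 over control lay between 0.959 and 1.05 in the intron deletion (95% interval, 2 of 4 bins lower), and was 0.761 in the upstream deletion (0.729 to 0.795, 4 of 4 bins lower) and 0.882 in WT (0.855 to 0.91, 5 of 6 bins lower). All 4 tested Ctla4 bins had negative IL-2 changes, from -0.33 to -0.07, with adjusted p of 0.0884 to 0.651. The 3 shared partner bins in Gm34649 had upstream deletion changes of -0.39, -0.33 and -0.38, with adjusted p of 0.0794, 0.0951 and 0.0677.

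At Gm38137 the listed bins had a median scaled coverage of 288 reads with IL-2 and 291 in control for the intron deletion, 295 in the control of the upstream deletion, and 527 with IL-2 and 363 in control for WT. The number of its bins that were listed was 7 and 3 (IL-2 and control) in intron deletion cells, 0 and 3 in upstream deletion cells, and 15 and 8 in WT cells. The medians are thus over different bins in each library. Over the bins listed in both libraries, the ratio of IL-2 over control was 1.34 in WT (1.28 to 1.41), with 7 of 7 bins higher. In the intron deletion it was 1.13 (1.01 to 1.27), with 2 of 2 bins higher. The intron deletion with IL-2 stood at 0.56 times WT with IL-2 (0.532 to 0.589), with 0 of 7 bins higher. In control the intron deletion stood at 0.733 times WT (0.668 to 0.805, 0 of 3 bins higher). The upstream deletion in control stood at 0.759 times WT (0.683 to 0.844, 0 of 2 bins higher). None of these bins was listed in all 6 libraries, so none was tested.

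The pairs of Pdcd1, the gene of PD-1, were all inside its window, 5 to 16 kb apart. The main one joined the bin of the promoter, chr1:94052001-94053000, to chr1:94047001-94048000 inside the gene. It had 71 and 55 contacts (IL-2 and control) in intron deletion cells, 48 and 48 in upstream deletion cells and 72 and 80 in WT cells. The second shared pair, of chr1:94048001-94049000 and chr1:94053001-94054000, had 30 and 22 (IL-2 and control) in intron deletion cells, 26 and 22 in upstream deletion cells, and 42 and 29 in WT cells. Both upstream deletion libraries lay below both WT libraries in each pair, before and after scaling for depth. Listed pairs numbered 14 and 5 (IL-2 and control) in intron deletion cells, 3 and 9 in upstream deletion cells and 19 and 21 in WT cells. For the 2 shared pairs together the log2 fold change was -0.31 in the upstream deletion against WT (SE 0.15, adjusted p = 0.416), 0.00 in the intron deletion (SE 0.14, adjusted p = 0.997) and -0.09 with IL-2 (SE 0.12, adjusted p = 0.686).

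Coverage at Pdcd1 was lower in both deletions than in WT in all 4 tested bins, with log2 fold changes of -0.24 to -0.13 in the intron deletion and -0.46 to -0.25 in the upstream deletion. These comparisons share the WT libraries. The promoter bin had 2044 and 1474 reads (IL-2 and control) in intron deletion cells, 1641 and 1817 in upstream deletion cells and 2652 and 2568 in WT cells. It fell by 0.21 on the log2 scale in the intron deletion (SE 0.07, adjusted p = 0.0429, edgeR), and the bin upstream of it at 94053001 fell by 0.24 (SE 0.08, adjusted p = 0.044). In the upstream deletion the bin at 94048001, with 902 and 1000 reads (IL-2 and control) against 1749 and 1570 in WT, fell by 0.46 (SE 0.07, adjusted p = 0.044). The intron deletion calls were lost with other scalings (adjusted p of 0.0613 to 0.0813), with DESeq2 (0.204 at the promoter bin and 0.239 at 94053001), and without any one upstream deletion or WT library (0.0857 to 0.485). The call at 94053001 was also lost without the intron deletion IL-2 library (0.0732), and that at 94048001 without any one upstream deletion or WT library (0.206 to 0.416). Over all Pdcd1 bins listed in both libraries, the upstream deletion stood at 0.782 times WT with IL-2 (0.754 to 0.811, 5 of 5 bins lower) and at 0.797 times WT in control (0.773 to 0.822, 9 of 10 bins lower). The intron deletion stood at 0.934 (7 of 12 bins lower) and 0.868 times WT (6 of 6). With IL-2 all 4 tested bins had negative changes, from -0.16 to -0.09, and none passed.

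Of the 49 pairs at Lag3, 23 ended in the 2 bins at the Lag3-facing end of Mlf2 (chr6:124930001-124932000), a gene of the myeloid leukaemia factor family and no checkpoint gene. They were listed 16 and 12 times (IL-2 and control) in intron deletion cells, 11 and 12 in upstream deletion cells and 21 and 21 in WT cells. Another 7 pairs joined Lag3 bins to Ptms bins. The strongest pair joined chr6:124911001-124912000, in Lag3, to chr6:124931001-124932000, with 58 and 37 contacts (IL-2 and control) in intron deletion cells, 42 and 53 in upstream deletion cells and 70 and 47 in WT cells. The pair of the same Lag3 bin with chr6:124916001-124917000 in Ptms had 46 and 31 (IL-2 and control) in intron deletion cells, 44 and 64 in upstream deletion cells, and 62 and 46 in WT cells. The third, with no anchor in Lag3 itself, joined that Ptms bin to the Mlf2 bin at 124931001 with 54 and 27 contacts (IL-2 and control) in intron deletion cells, 44 and 33 in upstream deletion cells, and 67 and 59 in WT cells. The order of IL-2 and control libraries in the upstream deletion differed between these 3 pairs.

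Over its 15 shared pairs Lag3 had 655 and 426 contacts (IL-2 and control) in intron deletion cells, 515 and 617 in upstream deletion cells and 709 and 652 in WT cells. The log2 fold changes were -0.10 with IL-2 (SE 0.08, adjusted p = 0.483, edgeR), -0.01 in the intron deletion (SE 0.10, adjusted p = 0.937) and 0.06 in the upstream deletion (SE 0.10, adjusted p = 0.858). By the coverage of bins in the Lag3 window, IL-2 over control had a ratio of 0.942 in the intron deletion (8 of 10 bins lower), 0.87 in the upstream deletion (9 of 10) and 0.902 in WT (13 of 14). These bins include Ptms bins and bins without an annotated gene. Without 1 of the intron deletion libraries, the IL-2 change of contacts was -0.21. Without 1 of the upstream deletion libraries it was 0.00 (IL-2) and 0.01 (control), so its sign turned there.

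Of the 9 tested bins in the Lag3 window, 3 were lower in the intron deletion than in WT. The bin at chr6:124910001-124911000, within Lag3 and with 1606 and 1087 reads (IL-2 and control) in the intron deletion against 2177 and 2075 in WT, fell by 0.30 (SE 0.08, adjusted p = 0.023, edgeR). The Ptms bins at 124915001 and 124917001 fell by 0.30 each (SE 0.08 and 0.07, adjusted p = 0.0309 and 0.0176). All 3 calls were lost without either WT library (adjusted p of 0.163 to 0.255) and with DESeq2 (0.0592, 0.276 and 0.0676), and that at 124915001 also without the intron deletion IL-2 library (0.0682) or the upstream deletion control library (0.0505). In the upstream deletion the bin chr6:124901001-124902000, outside Lag3 on its Cd4 side, fell by 0.41 (SE 0.07, adjusted p = 0.048), with 1261 and 1273 reads (IL-2 and control) against 2288 and 1998 in WT, and lost the call without any one upstream deletion or WT library (0.202 to 0.489). The Mlf2 bin at 124931001, with 5962 and 4193 reads (IL-2 and control) in intron deletion cells, 4642 and 4624 in upstream deletion cells and 6525 and 5725 in WT cells, had changes of 0.09, -0.06 and -0.01 in the intron deletion, the upstream deletion and with IL-2 (adjusted p = 0.168, 0.494 and 0.88). The bin at 124911001 had an IL-2 change of -0.28 (adjusted p = 0.0719), and its IL-2 response in the intron deletion differed from that in the other 2 genotypes by 0.28 (SE 0.09, adjusted p = 0.0105).

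Havcr2 had few listed pairs in the intron deletion. Its libraries listed 2 with IL-2 and 1 in control, the upstream deletion libraries 9 and 4 and the WT libraries 15 and 14. Each of its 20 pairs had exactly 1 anchor in the Havcr2 window. In 14 of them the other anchor was the bin of Med7, a Mediator subunit gene (chr11:46437001-46438000), listed 2 and 1 times (IL-2 and control) in intron deletion cells, 8 and 2 in upstream deletion cells and 13 and 11 in WT cells. Of the pairs, 2 were listed in 5 libraries. The pair of the Med7 bin with chr11:46452001-46453000 had 23 contacts with IL-2 in intron deletion cells, 26 and 26 with IL-2 and in control in upstream deletion cells, and 35 and 45 in WT cells. That with chr11:46474001-46475000, inside Havcr2, had 21 with IL-2 in intron deletion cells, 27 and 23 with IL-2 and in control in upstream deletion cells, and 29 and 37 in WT cells. The bin of the Havcr2 start, chr11:46454001-46455000, was listed in neither intron deletion library, and had 667 reads with IL-2 in the upstream deletion, against 783 with IL-2 and 530 in control in WT.

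**Figure D5:**
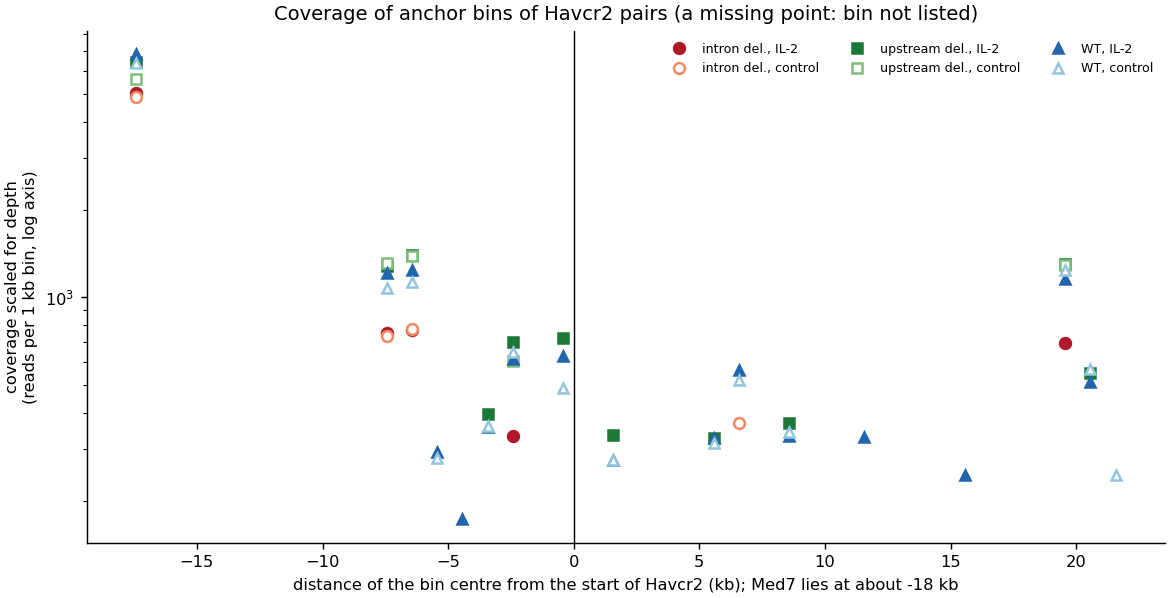
Coverage of the anchor bins of Havcr2 pairs, divided by the depth factor of the library (y axis, reads per 1 kb bin, log axis), against the distance from the start of Havcr2 (x axis, kb). Intron deletion points lie below every point of the other genotypes at each bin where they were listed, including the 2 bins 7 to 8 kb upstream, with log2 fold changes of -0.61 against WT.

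Although no bin in the Havcr2 window was listed in all 6 libraries, 3 of the partner bins described here were. The bins chr11:46447001-46448000 and chr11:46448001-46449000, which overlap no annotated gene, lay between Med7 and Havcr2. The first had 812 and 549 reads (IL-2 and control) in intron deletion cells, 1176 and 1207 in upstream deletion cells, and 1509 and 1166 in WT cells. The second had 831 and 580 reads (IL-2 and control) in intron deletion cells, 1280 and 1271 in upstream deletion cells, and 1546 and 1229 in WT cells. In both, the intron deletion libraries were below all 4 others, before and after scaling for depth. The bins fell by 0.61 each in the intron deletion against WT (SE 0.08 each, adjusted p = 0.00222 and 0.00172, edgeR), and the Med7 bin, with 5419 and 3630 reads (IL-2 and control) against 8521 and 6952 in WT, fell by 0.42 (SE 0.05, adjusted p = 0.00208). In the upstream deletion these 3 bins had changes of 0.19, 0.23 and -0.14 (adjusted p = 0.22, 0.134 and 0.196). The 3 calls in the intron deletion held with each of the 3 other scalings or tools and with any one library left out, where adjusted p reached at most 0.0339. Among all tested bins 4.92% had an intron deletion change as low as the bin at 46447001, 4.95% as low as that at 46448001 and 11.9% as low as the Med7 bin. Within the Havcr2 window the intron deletion had 0.58 times the WT coverage with IL-2 (0.539 to 0.623, 2 bins) and 0.715 times in control (0.617 to 0.827, 1 bin), while the upstream deletion with IL-2 had 1.12 times (1.07 to 1.17, 8 of 8 bins higher) and in control 1.005 times (0.942 to 1.07, 1 of 2 bins higher).

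Among 22 other checkpoint and costimulatory receptor genes 10 were measured, of which 3 rose in the intron deletion, while 0 passed with IL-2 and 0 with the upstream deletion. Over all loci 9.45% rose and 8.35% fell in the intron deletion, and 2.33% rose and 1.22% fell with IL-2. The 3 were Tnfrsf14, the gene of the BTLA ligand HVEM (0.89, SE 0.11, adjusted p = 0.000309, edgeR), Vsir, the gene of VISTA, measured together with Cdh23 (0.42, SE 0.06, adjusted p = 0.00118), and Cd96, a receptor for nectin family ligands (0.41, SE 0.12, adjusted p = 0.0313). The calls of Tnfrsf14 and Vsir held with any one library left out, but that of Vsir was lost with unlisted pairs set at 19 contacts (0.29, adjusted p = 0.0749). The call of Cd96 was lost without the IL-2 library of the intron deletion (adjusted p = 0.203), the upstream deletion (0.0521) or WT (0.29), without the WT control library (0.143), and with DESeq2 (0.283). Of the 9 alternatives that kept all 6 libraries, only 4 kept the Cd96 call. Tigit, which shares ligands with CD96, had changes of -0.16 in the intron deletion, 0.11 in the upstream deletion and 0.17 with IL-2 (adjusted p = 0.716, 0.897 and 0.699). The list's median change was 0.36 in the intron deletion, against -0.01 over all gene loci.

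Of 16 ligand genes only 3 were measured. Cd274, the gene of the PD-1 ligand PD-L1, measured together with Plgrkt, had changes of 0.16 in the intron deletion, 0.15 in the upstream deletion and -0.04 with IL-2 (adjusted p = 0.237, 0.507 and 0.759). Cd48, which encodes the ligand of the receptor CD244, fell by 0.44 in the intron deletion (SE 0.12, adjusted p = 0.0313) and rose by 0.44 with IL-2 (SE 0.10, adjusted p = 0.0409, edgeR), but the first was lost without the intron deletion IL-2 library (adjusted p = 0.382) or a WT library (0.185 and 0.143), and the second without any one upstream deletion or WT library (0.143 to 0.511). Among alternatives that kept all 6 libraries, the intron deletion call of Cd48 held in 6 of 9 and its IL-2 call in 3 of 8. Pdcd1lg2 passed in no comparison.

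Among 19 genes of signalling below CD28, ICOS and PD-1, 17 were measured. In the intron deletion Prkcq, the gene of the kinase PKC-theta that relays CD28 costimulation, rose by 0.71 (SE 0.06, adjusted p = 3.58e-05, edgeR), and Nfkb1, the gene of an NF-kappaB subunit, fell by 0.34 (SE 0.08, adjusted p = 0.00998). Prkcq lies near Il2ra, the locus of the deletions, on the same chromosome, and the part of this position in its change was not tested. The Prkcq call held with any one library left out, and that of Nfkb1 was lost without the intron deletion IL-2 library (adjusted p = 0.0603), a WT library (0.209 for IL-2 and 0.053 for control) and with DESeq2 (0.0857). Of the 9 alternatives that kept all 6 libraries, 9 kept the Prkcq call and 7 that of Nfkb1. The other 15 genes did not pass, and none of the 17 passed with IL-2 or in the upstream deletion.

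Of 18 transcription factor genes tied to checkpoint receptor genes 13 were measured, and in the intron deletion 2 rose and 3 fell. Tcf7, the gene of TCF-1, a factor of memory and stem-like T cells, rose by 0.82 (SE 0.13, adjusted p = 0.00167, edgeR), and Bach2, a repressor of effector genes, by 0.24 (SE 0.07, adjusted p = 0.036). Irf4 and Batf, which act together at effector and checkpoint genes, fell by 0.62 (SE 0.09, adjusted p = 0.00077) and 0.54 (SE 0.08, adjusted p = 0.00118), and Tbx21, the gene of the effector factor T-bet, fell by 0.32 (SE 0.07, adjusted p = 0.00792). The calls of Tcf7, Irf4 and Batf held with any one library left out, although Tcf7 rose by only 0.48 without the intron deletion IL-2 library. They were lost with unlisted pairs set at 0 for Tcf7 (1.94, adjusted p = 0.0582) and Batf (-0.86, adjusted p = 0.116) and at 19 for Irf4 (-0.21, adjusted p = 0.137). The call of Tbx21 was lost without a WT library (adjusted p = 0.109 for IL-2 and 0.121 for control), and that of Bach2 without any one library other than the intron deletion control (0.0562 to 0.469). With IL-2 only Batf passed, with a fall of 0.29 (SE 0.07, adjusted p = 0.0404), and not without any one upstream deletion or WT library (0.259 to 0.493) or with DESeq2 (0.212). Of the 9 alternatives that kept all 6 libraries, 7 kept the intron deletion call of Tbx21, 6 that of Bach2 and 5 the IL-2 call of Batf. Stat5a and Stat5b, the factors that IL-2 activates, had IL-2 changes of -0.09 and -0.05 (adjusted p = 0.378 and 0.631).

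By the pattern of scaled contacts over the 6 libraries, the loci most like Ctla4 that share no pair with it were Scyl2 (Pearson r = 0.989) and the joint locus of Slc16a11 and Slc16a13 (r = 0.971). Those most like Pdcd1 were Fcgr1 (r = 0.976) and Ciao3 with Haghl (r = 0.974), and those most like Lag3 were Frat1 with Frat2 (r = 0.982) and Apaf1 with Ikbip (r = 0.977). These are the highest of correlations with all 3522 loci over only 6 libraries, described with no test.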

How the data were processed

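The deposited tables of 6 H3K27ac HiChIP libraries, 1 per genotype and treatment, list pairs of 1 kb bins with a deposited contact count and, for each bin, a deposited coverage count. Reads were handled with CASAVA, Bowtie2 2.2.6 and HiC-Pro on the mm10 build (GRCm38), as the submitters' processing notes state. The 25-column layout is that of FitHiChIP with p-value columns empty, and neither its version, its peak set nor a threshold is stated there. The deposited counts are whole numbers with no normalization applied. The table names hold a replicate number 2 that the labels lack, and nothing names separate mice.

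A pair missing from a library was treated as below the listing limit (20 contacts). Contacts of pairs listed in all 6 libraries were summed over genes extended by 5 kb (RefSeq, GRCm38.p6; 3522 loci, genes with the same pairs counted once), and single pairs (28033) and coverage of bins (18580) were tested too, with edgeR 4.0.16 (quasi-likelihood test, TMM, R 4.3.3), an additive model of genotype and treatment on the 6 libraries (2 residual degrees of freedom), and Benjamini-Hochberg adjustment over all features with a threshold of 0.05. Every adjusted p is from this fit unless DESeq2 1.42.0 is named. With no second library of any group, p-values measure the spread left by this model, that is, differences in IL-2 change among genotypes, which may be technical. A further fit, chosen after seeing the data, set the IL-2 response in 1 genotype against that in the other 2, with 1 residual degree of freedom. The alternatives for bin coverage, the Gm38137 stretch and the partner bins outside the windows were also chosen after seeing the data. A few items, among them 1 partner bin of Havcr2 pairs, are not reported here.

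The members, lists and markers were chosen with earlier results of these data known. Named were all 6 genes, their called pairs and up to 3 pairs with the most contacts among those listed in the most libraries, called genes of 4 lists with Tigit, Cd274 and Tnfrsf14, and the 2 most alike loci per member. Ratios of single libraries have exact binomial 95% intervals and sums exact Poisson ones, for counting error only. On simulated counts for the IL-2 comparison of 3522 loci, 96 of 100 changes of log2 1 and 79 of 100 of log2 0.5 were called, with 13 of 3322 unchanged loci. The simulated loci all had the same spread and no difference between genotypes. These rates therefore do not cover differences in IL-2 change among genotypes in the real libraries. The alternatives tried were other scalings (RLE size factors, library sums alone), DESeq2, leaving out each library, a mean of at least 40 contacts, unlisted pairs at 0 or 19, gene spans with 0 or 25 kb added, and coverage in place of contacts.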

Additional observations from a re-analysis of the deposited data

Results flagged for a closer look

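The IL-2 response, the log2 fold change of coverage with IL-2 over control, differed between the intron deletion and the other 2 genotypes in 4 bins that anchor pairs of these genes, by the test of the difference itself (edgeR, 1 residual degree of freedom). The difference was 0.29 at the Cd28 bin chr1:60759001-60760000 (adjusted p = 0.0126), 0.27 at the bin of the Ctla4 start chr1:60909001-60910000 (adjusted p = 0.00461), 0.40 at the bin chr1:60916001-60917000 at the end of Ctla4 (adjusted p = 0.00908) and 0.28 at the Lag3 bin chr6:124911001-124912000 (adjusted p = 0.0105). All 4 were responses that were less negative or more positive in the intron deletion. They were 4 of the 19 tested bins in the gene windows, and 0 of the 9 tested partner bins outside the windows differed. Of all 18580 bins tested, 10.1% had a higher response in the intron deletion, and 21.5% differed in either direction. At the 4 bins, in the order above, the upstream deletion differed from the other 2 genotypes by -0.22, -0.32, -0.45 and -0.28. WT differed from the other 2 by -0.08, 0.05, 0.02 and -0.01. These upstream deletion and WT differences did not pass. Scaled coverage fell further with IL-2 in the upstream deletion than in WT at each of the 4 bins. The response of the intron deletion rests on 1 IL-2 and 1 control library, the control being the shallowest of the 6, and the part of depth was not tested.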

How the results depend on the processing

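Calls across all features moved widely. With IL-2, the 125 loci became 57 with DESeq2, 83 at a mean of 40 or more contacts, 0 and 20 with unlisted pairs at 0 and 19, 67 and 236 with 0 and 25 kb added, and 0 by coverage; the 924 pairs became 0 with DESeq2, 0 with unlisted pairs at 0 and 603 at 19; the 0 bins became 2172 with DESeq2. In the intron deletion, the 627 loci became 231 with DESeq2, 311 with unlisted pairs at 0 and 1763 by coverage, and the 3166 pairs 119 with DESeq2 and 0 with unlisted pairs at 0. In the upstream deletion, the 6 loci became 16 with RLE, 2 with DESeq2, 0 with unlisted pairs at 0 and 0 by coverage, the 22 pairs 2 with DESeq2 and 0 with unlisted pairs at 0, and the 314 bins 538 with DESeq2. Leaving out 1 library gave 0 to 842 loci, 46 to 1825 pairs and 0 to 10125 bins with IL-2, 213 to 1030, 494 to 3285 and 3815 to 12228 in the intron deletion, and 0 to 251, 3 to 86 and 1 to 7555 in the upstream deletion. The causes were not tested.

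Directions turned for some locus values that had not passed. The intron deletion change of Ctla4 was -0.069 at a mean of 40 or more contacts and -0.037 and -0.032 with unlisted pairs at 0 and 19. That of Pdcd1 was -0.014 with library sums, -0.37 and -0.083 with unlisted pairs at 0 and 19, -0.0042 with 25 kb added and -0.12 by coverage. That of Lag3 was 0.016 with unlisted pairs at 0, and its upstream deletion change -0.049, -0.049 and -0.13 with unlisted pairs at 0 and 19 and by coverage. With 1 library left out, ranges that crossed 0 were -0.16 to 0.067 for Ctla4 in the upstream deletion, -0.066 to 0.053 for Pdcd1 in the intron deletion, and for Lag3 -0.21 to 0.015 with IL-2, -0.20 to 0.15 in the intron deletion and -0.13 to 0.25 in the upstream deletion. Havcr2, with no main locus value, had an intron deletion change of -2.82 with unlisted pairs at 0 (adjusted p = 0.0312, edgeR) and -0.17 at 19 (adjusted p = 0.207). Cd28 by coverage had an intron deletion change of 0.31 (adjusted p = 0.0487, edgeR). This value rests on the 1 shared Cd28 bin, at 60759001, which had 0.26 (adjusted p = 0.07) in the fit of bins. No paired analysis was possible because each genotype and treatment has 1 library and no label pairs them beyond the factors already in the fit. With a library left out, its arm has 1 library that is assumed to vary like the others. For the IL-2 comparison that library then adds nothing, so leaving out either library of a genotype is the same check. Depth limits these genes: most of their pairs lie near the listing limit.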
